A study of Mus musculus with 28 samples.

Results

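Voltage-gated potassium (Kv) channel alpha subunits were followed across the mouse brain at 3 weeks after birth. The members were 36 genes of the Kv1 to Kv12 families, listed by symbol, out of 20660 named genes on the array. All 36 had a probe, 49 probes in all, and a gene with several probes is given by its brightest one, judged by the mean over the 28 arrays. 32 members could be tested, because every series had at least 1 fraction where their probe was well above background, and 22 were well above background on all 28 arrays.

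The mice were 3 males of strain C57BL/6J, 3 weeks old, and the method was Transcriptome Tomography: a brain is frozen, sliced along 1 axis and pooled into fractions, and the RNA of each fraction goes on an array. There were 12 coronal, 6 horizontal and 10 sagittal fractions, from 1 mouse each with no treatment named in the labels, so mouse and plane cannot be told apart. No position was measured more than once, so the scatter around a smooth curve was the only error of the position tests. Mirror pairs of sagittal fractions gave the error for distance from the midline. The p-values below describe 1 brain each. Positions are given as fraction numbers.

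Kv channels open when the membrane depolarises and let potassium out, which ends the action potential and sets how fast a neuron can fire again. Alpha subunits form the pore and carry the voltage sensor, and they assemble as tetramers within a family. Kv1 subunits sit largely on axons, Kv3 subunits close fast enough to allow rapid firing, Kv4 subunits carry a transient current in dendrites, and Kv7 subunits carry the M current. Kv10 to Kv12 are the ether-a-go-go relatives, and Kv5, Kv6, Kv8 and Kv9 subunits are silent on their own and modify Kv2 channels.

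A level is log2 of the processed signal relative to the 75th percentile of the same array, so 0 is the 75th percentile and 1 unit is a 2-fold difference. Levels of different genes come from different probes and are not set against each other. The 75th percentile itself lay between 135 (sagittal fraction 1) and 574 intensity units, with sagittal fraction 9 at 176 and horizontal fraction 6 at 233, and no spot was saturated. The arrays shared 4 slides, and the coronal fractions 1 and 2, 3 to 10, and 11 and 12 lay on different slides. The label of coronal fraction 12 also names a following fraction, so it may be wider than the others. Marker genes gave the axes: relative to its mean over the series, each list peaked somewhere along the coronal axis, hindbrain genes in fraction 1 (5.02), cerebellar genes in fraction 3 (4.95), cortical and striatal genes in fraction 8 (1.03 and 2.90) and genes of the olfactory bulb in fraction 12 (6.18). On the horizontal axis cortical genes peaked in fraction 1 (1.18) and hypothalamic genes in fraction 6 (4.90). The 5 pan-neuronal markers were well above background in every fraction of all 3 series. The mean of this list moved between -0.69 (fraction 11) and 0.32 (fraction 2) in the coronal series. Single genes moved further and in opposite directions. Syt1 stood at 5.2 in fraction 1 and 7.5 in fraction 9, and Nefl at 7.0 in fraction 1 and 4.8 in fraction 11.

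Promoter sequences were read for members that moved in opposite coronal directions. RefSeq (GRCm38.p6) windows of 250 bases before the start were matched for 25 of the 36 members, 30 windows in all. Kcnc1 and Kcng4 were highest at the hindbrain end of the coronal series, and Kcnf1 and Kcnh7 were lowest there. Each window is given 5′ to 3′ on the strand of its gene, with CG dinucleotides in capitals.
Kcnc1, chr7:46396218-46396467, plus strand: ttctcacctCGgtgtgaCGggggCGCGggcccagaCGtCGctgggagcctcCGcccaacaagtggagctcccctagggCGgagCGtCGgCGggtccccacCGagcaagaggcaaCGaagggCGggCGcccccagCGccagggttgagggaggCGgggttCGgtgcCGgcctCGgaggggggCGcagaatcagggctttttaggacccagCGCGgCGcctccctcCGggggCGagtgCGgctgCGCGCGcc
Kcng4, chr8:119635681-119635930, minus strand: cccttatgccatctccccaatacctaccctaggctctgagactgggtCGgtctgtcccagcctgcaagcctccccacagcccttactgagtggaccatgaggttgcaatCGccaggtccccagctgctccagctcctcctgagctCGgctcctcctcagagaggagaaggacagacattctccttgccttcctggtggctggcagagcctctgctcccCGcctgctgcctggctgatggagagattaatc
Kcnf1, chr12:17176889-17177138, minus strand: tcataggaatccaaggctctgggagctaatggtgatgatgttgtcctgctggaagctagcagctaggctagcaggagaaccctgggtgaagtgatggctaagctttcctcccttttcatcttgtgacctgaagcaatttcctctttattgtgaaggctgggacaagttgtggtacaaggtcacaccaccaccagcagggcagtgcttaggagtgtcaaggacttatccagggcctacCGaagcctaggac
Kcnh7, chr2:63184288-63184537, minus strand: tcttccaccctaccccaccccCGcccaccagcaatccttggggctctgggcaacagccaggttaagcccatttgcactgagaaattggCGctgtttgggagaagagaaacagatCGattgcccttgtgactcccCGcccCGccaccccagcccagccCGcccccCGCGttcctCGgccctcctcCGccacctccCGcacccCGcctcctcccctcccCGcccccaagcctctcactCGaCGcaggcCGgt
The windows held 30 CG dinucleotides for Kcnc1, 4 for Kcng4, 1 for Kcnf1 and 16 for Kcnh7. These 4 members were chosen as examples after their values were seen, and nothing is read from them about direction. Over the 30 member windows the median was 14, against 6 over all 32851 windows of that length. The letters GGGCGG, searched on both strands, stood in 17 member windows of 16 members and in 32.7% of all windows. TATAAA stood in 0 member windows and 12.4% of all, TGACG in 5 and 17.8%, and CACGTG in 1 and 6.02%. These are counts of letters in a window and no statement about a factor.

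Along the coronal axis, most Kv members changed with position, and they did so in opposite directions. The level of 22 of the 32 tested members followed a curve over the 12 fractions (limma F-test on a spline, Benjamini-Hochberg adjusted p under 0.05), against 33.7% of all 32364 probes. Before adjustment 24 members and 47.3% of all probes had p under 0.05. The median fitted difference between the highest and lowest point was 1.99 log2 over the tested members and 0.90 over all probes. 5 members had their highest fitted level in fraction 1, at the hindbrain end: Kcna1, Kcnc1, Kcng4, Kcnh2 and Kcns3. Of all 10910 probes called, 2997 were highest in fraction 1, 1763 in fraction 8 and 3057 in fraction 12. 12 members were highest in fractions 6 to 9, 2 in fraction 10, and Kcnb2, Kcnd3 and Kcnf1 in fraction 12. In a bulk fraction, fewer cells of a type and less RNA per cell cannot be told apart.

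**Figure D1:**
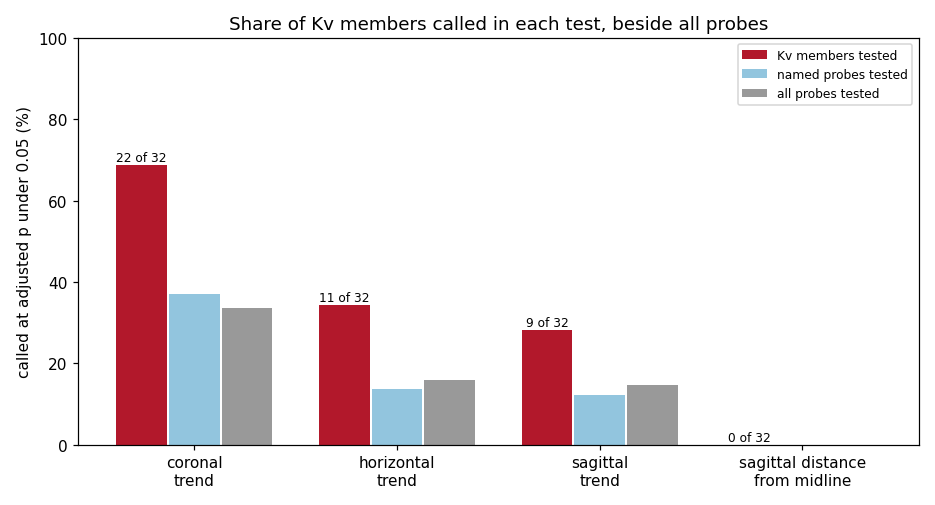
Share of Kv members called in each of the 4 tests (red, with the count called of 32 tested), beside the share of all named probes (blue) and of all tested probes (grey), in percent of those tested. The members' bars stand at 68.8%, 34.4%, 28.1% and 0%.

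The slides changed along the coronal axis together with position. With slide as an added term 1 member, Kcng4, was called (adjusted p = 0.0365, limma) and 0.745% of all probes. Within fractions 3 to 10, which lay on 1 slide, 16 members were called against 14.5% of all probes, and 13 of them were among the 22. Kcna1, Kcna5, Kcna6, Kcnb2, Kcnc4, Kcnd3, Kcnh1, Kcnh5 and Kcns1 were not called there. When each fraction was left out in turn, 15 of the 22 were called every time, and the count ran from 18 (without fraction 12) to 24 (without fraction 3). The share of all probes in those runs is not given here, so this range is not read as a result about the members. Kcna6, Kcnb2 and Kcnc4 were lost without fraction 12, Kcnh5 without fraction 2, Kcns1 without fraction 6, 9, 11 or 12, and Kcnc2 and Kcnd3 without 7 and 9 of the 12 fractions in turn.

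Among the Kv1 subunits, 4 of 7 tested changed along the coronal axis, where 33.7% of all probes were called. Kcna1, an axonal channel of low threshold, stood at 4.86, 5.44, 5.34, 5.08, 4.26, 4.55, 4.06, 4.27, 4.45, 2.90, 2.69 and 2.85 in coronal fractions 1 to 12. It was high in the first 4 fractions and lowest in the last 3, a 6.72-fold range with a fitted range of 2.63 log2 (residual SD 0.45, limma adjusted p = 0.00397). Kcna6 stood at 5.25, 5.04, 4.32, 4.92, 4.87, 5.15, 4.92, 4.95, 5.31, 4.95, 3.77 and 3.26, between 4.32 and 5.31 up to fraction 10 and lowest in fractions 11 and 12 (fitted range 2.00, residual SD 0.29, adjusted p = 0.00518). Kcna4, which inactivates rapidly after opening, ran the other way from Kcna1. Its level lay between -0.74 (fraction 1) and 1.92 (fraction 10), with a median of 0.65 and a fitted range of 1.84 (adjusted p = 0.00642). Kcna5 lay between -2.33 (fraction 3) and -0.22 (fraction 9) with a median of -1.39 (adjusted p = 0.00292). Kcna2, a common partner of Kcna1 in axonal channels, lay between 0.37 (fraction 10) and 1.96 (fraction 1) and missed the threshold (adjusted p = 0.0615).

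Some genes of this family lie next to each other in the genome. In the GRCm38.p6 gene order Kcna5, Kcna1 and Kcna6 are consecutive, and so are Kcna3, Kcna2 and Kcna10. Across the coronal series Kcna5 had its highest fitted level in fraction 10, Kcna6 in fraction 8 and Kcna1 in fraction 1. The highest measured level was in fraction 9 for both Kcna5 and Kcna6, and in fraction 2 for Kcna1. In the other cluster neither Kcna3 nor Kcna2 was called, and Kcna10 was not tested.

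The Kv3 subunits, the channels of fast-firing neurons, were called in 3 of 3 cases, against 33.7% of all probes, with peaks at different places. Of these calls, that of Kcnc2 was lost without 7 of the 12 fractions in turn and that of Kcnc4 without fraction 12. Kcnc1 stood at 3.44, 3.83, 3.32, 2.67, 1.96, 1.88, 1.50, 1.47, 1.88, 0.80, 1.94 and 2.17 in coronal fractions 1 to 12. It was highest in fractions 1 to 3, where the cerebellum and hindbrain markers were also highest, and lowest in fraction 10 (8.21-fold range, fitted range 2.45, residual SD 0.40, adjusted p = 0.00302). Kcnc2 stood at 0.16, -0.57, -0.10, 1.39, 1.87, 2.22, 1.86, 1.65, 1.34, 0.48, 0.30 and 0.92, low in the first 3 fractions and highest in fraction 6 (fitted range 2.37, residual SD 0.60, adjusted p = 0.0311). Kcnc4 lay between 0.48 (fraction 12) and 2.97 (fraction 5), with a median of 2.33 and an adjusted p of 0.0160. The list of fast-spiking interneuron markers fell to -2.39 in fraction 12, but its genes differed: Pvalb, which Purkinje cells also express, went from 8.38 in fraction 1 to 2.36 in fraction 12, while Cox6a2 went from -0.46 to 2.22 with 4.12 in fraction 7, and Tac1 was highest in fraction 9 (5.71). Syt2, the other gene of the list, went from 0.38 in fraction 1 to -5.79 in fraction 12. The latter lay below the lowest signal well above background on that array (-4.58). Their part in the Kv3 profiles was not tested.

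**Figure D2:**
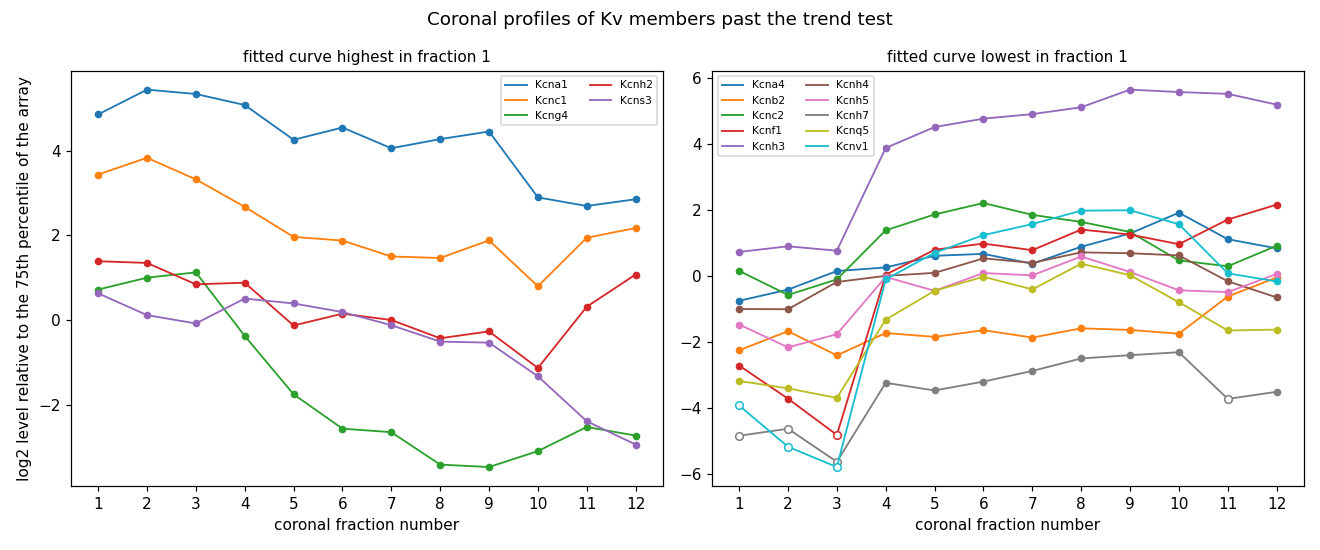
Levels of called members by coronal fraction number (log2 relative to the 75th percentile of the array, 1 array per point), for members with the fitted maximum (left) or minimum (right) in fraction 1. Open circles were not well above background. Kcng4 drops between fractions 3 and 8, and Kcnh3, Kcnf1, Kcnv1 and Kcnq5 step up between fractions 3 and 4.

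Kcng4 and Kcns3, silent subunits that modify Kv2 channels, were high at the hindbrain end. Kcng4 stood at 0.72, 1.00, 1.12, -0.38, -1.76, -2.57, -2.65, -3.42, -3.47, -3.10, -2.53 and -2.73 in coronal fractions 1 to 12. Fractions 1 to 3 lay above 0.7 and fractions 6 to 12 below -2.5, so the ends did not overlap (24.2-fold range, fitted range 4.80, residual SD 0.52, adjusted p = 0.000344). Within fractions 3 to 10 its adjusted p was 0.00461. Kcns3 stood at 0.63, 0.12, -0.08, 0.51, 0.39, 0.19, -0.12, -0.51, -0.54, -1.33, -2.39 and -2.94, with a decline in fractions 10 to 12 (11.9-fold range, fitted range 3.40, residual SD 0.26, adjusted p = 0.00016, and 0.0191 within fractions 3 to 10).

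Other silent subunits had the opposite profile. Kcnv1 (Kv8) was not well above background in coronal fractions 1 to 3, where it read -3.91, -5.16 and -5.77, and it stood at -0.09 in fraction 4 and at 2.00 in fraction 9. Counted from the lowest signal well above background on the array of fraction 3, the range was 97.9-fold. The fitted range was 7.71 (residual SD 1.41, adjusted p = 0.00447). Kcnf1 (Kv5) read -2.70, -3.70 and -4.80 in fractions 1 to 3, the last not well above background, then 0.05 in fraction 4 and 2.17 in fraction 12. Its range, counted in the same way, was 110.1-fold (fitted range 5.93, residual SD 1.31, adjusted p = 0.00980). Fractions 3 and 4 lay on the same slide. The cortex marker list went from -1.58 in fraction 3 to 0.33 in fraction 4, and the cerebellum list from 4.95 to 2.87 and, in fraction 5, -1.38. The part of these regions in the step was not tested.

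Kcns1, a Kv9 subunit, lay between -6.01 in fraction 12, where it was not well above background, and -0.64 in fraction 10 (adjusted p = 0.0334). Kcns2 and Kcng1 did not pass the coronal test, with ranges of -2.90 to -0.96 and -3.33 to 1.08. Kcng2 reached 3.64 in fraction 3 and -0.61 in fraction 12 and was not called either.

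The delayed rectifier Kcnb2 was the Kv2 member listed. It stood at -2.24, -1.66, -2.39, -1.72, -1.83, -1.63, -1.86, -1.58, -1.62, -1.74, -0.61 and -0.04 in coronal fractions 1 to 12, and it was higher in fractions 11 and 12 than in the rest (5.12-fold range, fitted range 2.03, residual SD 0.32, adjusted p = 0.00628). Of the Kv4 subunits, Kcnd3 passed narrowly (2.80 to 4.17, adjusted p = 0.0493). Kcnd1 lay between 0.41 and 1.49 (adjusted p = 0.0566) and Kcnd2 between 2.20 and 4.16, and neither was called.

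The Kv7 subunits Kcnq3 and Kcnq5, which form M channels, both rose from the hindbrain end towards the middle of the forebrain. Kcnq5 stood at -3.17, -3.39, -3.68, -1.31, -0.44, -0.02, -0.40, 0.38, 0.03, -0.79, -1.64 and -1.62 in coronal fractions 1 to 12, below -3.1 in the first 3 and at 0.38 in fraction 8 (16.7-fold range, fitted range 3.99, residual SD 0.66, adjusted p = 0.00336). Kcnq3 stood at -1.90, -2.45, -2.80, -1.48, -1.08, -0.55, -0.76, -0.62, -0.39, -1.35, -2.08 and -2.60, highest in fractions 6 to 9 and low at both ends (5.34-fold range, fitted range 2.35, residual SD 0.43, adjusted p = 0.00576). Kcnq1, best known from the heart, lay between -4.04 and -1.17 and was not called.

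The ether-a-go-go families were called in 6 of 7 tested members, against 33.7% of all probes. Kcnh3, of the ELK group, stood at 0.74, 0.91, 0.77, 3.88, 4.52, 4.77, 4.91, 5.12, 5.65, 5.58, 5.52 and 5.20 in coronal fractions 1 to 12. The first 3 fractions lay below 1 and the other fractions above 3.8 (30.1-fold range, fitted range 5.44, residual SD 0.67, adjusted p = 0.000585, and 0.0222 within fractions 3 to 10). Kcnh5, of the EAG group, stood at -1.46, -2.15, -1.75, -0.02, -0.44, 0.10, 0.03, 0.60, 0.13, -0.43, -0.48 and 0.07, also low in the first 3 fractions (fitted range 2.22, residual SD 0.53, adjusted p = 0.0207). Kcnh2, the ERG channel of cardiac repolarisation, was the exception in direction. It stood at 1.39, 1.35, 0.84, 0.88, -0.13, 0.15, 0.00, -0.43, -0.27, -1.13, 0.31 and 1.07, high at both ends and lowest in fraction 10 (5.75-fold range, fitted range 1.98, residual SD 0.43, adjusted p = 0.0107). Kcnh4 (-0.998 to 0.72, adjusted p = 0.00122) and Kcnh1 (-2.72 to -1.04, adjusted p = 0.00168) were highest around fraction 8. Kcnh7 was not well above background in fractions 1 to 3 and 11, and it rose to -2.30 in fraction 10 (adjusted p = 0.0108). Its range was 4.98-fold, counted from the lowest signal well above background on the array of fraction 3.

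Along the horizontal axis, 11 of 32 members changed, against 15.8% of all probes (before adjustment, 20 members and 37.1% of probes). 4 members had their highest fitted level in fraction 1, where cortex markers were also highest, 4 in fraction 3 or 4, and 3 in fraction 6, of which Kcnh8 was not well above background in fraction 6. Of all 5115 probes called, 932 were highest in fraction 1 and 2579 in fraction 6. The median fitted range was 1.36 log2 over the tested members and 0.74 over all probes. Kcnh3 stood at 6.03, 5.48, 4.91, 4.44, 4.02 and 4.04 in horizontal fractions 1 to 6, a descent to fraction 5 (4.01-fold range, residual SD 0.11, adjusted p = 0.0188). Kcnv1 stood at 2.15, 1.80, 0.64, 0.42, 0.52 and 0.01 and was also highest in fraction 1 (4.39-fold, residual SD 0.29, adjusted p = 0.0280). Kcnh7 and Kcns1 had the same order, from -1.80 and -1.09 in fraction 1 to a signal not well above background in fraction 6 (adjusted p = 0.0243 and 0.0332).

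Kcna1, Kcnc1 and Kcnd2 were low at both faces of the brain. Kcna1 stood at 2.52, 4.30, 4.43, 4.64, 4.73 and 3.46 in horizontal fractions 1 to 6 (4.65-fold, residual SD 0.40, adjusted p = 0.0486). Kcnc1 stood at 1.32, 2.47, 2.64, 2.82, 2.62 and 1.34 (2.82-fold, residual SD 0.26, adjusted p = 0.0383). Kcnd2, a dendritic transient channel, stood at 2.83, 3.39, 3.52, 3.63, 3.26 and 2.24 (2.62-fold, residual SD 0.16, adjusted p = 0.0364). For Kcna1 and Kcnc1 fraction 1 was lowest, and there the myelin list was also lowest (-2.15) and the cerebellum list stood at -3.75. The part of these cells was not tested.

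Kcng2 had the widest horizontal range among the called members. It stood at -0.05, 0.84, 1.16, 0.68, -0.73 and -2.41 in horizontal fractions 1 to 6, highest in fraction 3 and lowest in fraction 6 (11.9-fold, residual SD 0.05, adjusted p = 0.0169). Its other probe for the same transcript did not follow it here: their r was 0.24 over the horizontal, -0.56 over the coronal and 0.88 over the sagittal fractions and -0.10 over all 28, and that probe was not called (adjusted p = 0.270). Which of the probes measures the transcript was not settled, so all levels of Kcng2 given here are those of 1 probe. Kcna7, known from muscle, stood at 0.51, -0.44, -0.35, -0.31, 0.07 and 0.86 with the highest level in fraction 6 (adjusted p = 0.0480). That call was lost with arrays centred on the median (adjusted p = 0.698) and without any 1 of the 6 fractions. Its other probe correlated at 0.74 over the horizontal fractions and at 0.36 over all 28, and it was called in the coronal series (adjusted p = 0.0106), where the one used was not, but not in the horizontal series (adjusted p = 0.0861). Kcna5 rose from a signal not well above background in fraction 1 to -0.97 in fraction 5 (5.45-fold against that signal, adjusted p = 0.0200). Its other probe was not called (adjusted p = 0.112). Kcnh8 counted among the 11 (adjusted p = 0.0288), but it was well above background in fractions 3 and 5 alone. Its curve therefore runs mostly through background signal. Its range was 1.46-fold, counted from the lowest signal well above background on the array of fraction 1.

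**Figure D3:**
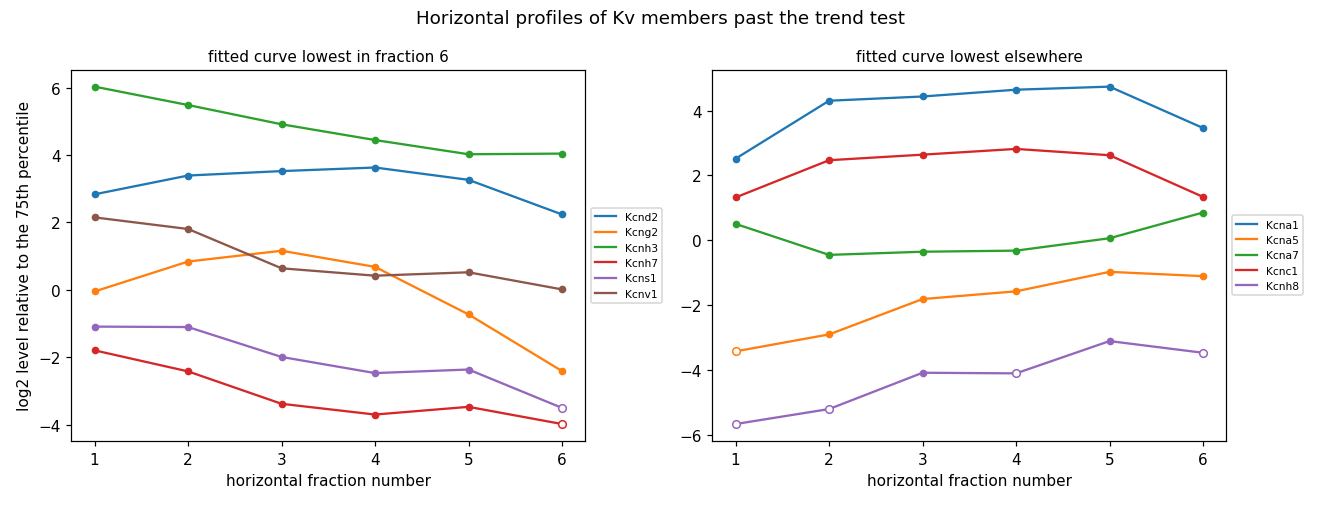
Levels of the 11 called members by horizontal fraction number (log2 relative to the 75th percentile of the array, 1 array per point), for members with the fitted minimum in fraction 6 (left) or elsewhere (right). Open circles were not well above background. Kcnh3 and Kcnv1 run down from fraction 1, and Kcna1 and Kcnc1 are low in fractions 1 and 6.

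The horizontal calls changed when 1 of the 6 fractions was left out. Without fraction 3 or fraction 4, 0 members and 0% of all probes were called by limma. In those runs 23 and 17 members had an unadjusted p under 0.05. The share of all probes by unadjusted p is not given for them, and it was 37.1% with all 6 fractions. Without fraction 1 the count was 1 (6.84% of all probes), without fraction 2 it was 5 (10.3%), without fraction 5 it was 13 (17.8%) and without fraction 6 it was 3 (4.13%), and no member was called in every such run. The same 6 fractions centred on the array median gave 24 members and 59.8% of all probes. With no filter on dim probes Kcna1, Kcna7, Kcnc1 and Kcnd2 were lost (adjusted p = 0.0584, 0.0690, 0.0503 and 0.0544). Kv4 member Kcnd3 (2.34 to 3.50, adjusted p = 0.0777) and Kv5 member Kcnf1 had adjusted p-values above the threshold, while their other probes were called in this series (adjusted p = 0.0405 and 0.0287), as was that of Kcnq5 (0.0169). Kcnf1 stood at 1.31, 1.01, 0.55, 0.59, 0.52 and -0.32 (adjusted p = 0.0635). Kcng4 stood at -3.14, -0.87, -0.76, -0.85, -1.08 and -2.12, low at both faces, with an adjusted p of 0.0543.

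Along the sagittal axis, 9 of 32 members followed a curve from one side of the brain to the other, against 14.7% of all probes (before adjustment, 17 members and 32.9% of probes). 6 of the 9 had their lowest fitted level in the outermost fraction 1 and 3 their highest. Of all 4767 probes called, 2853 were highest in fraction 1. The median fitted range was 1.38 log2 over the tested members and 1.06 over all probes. Kcna1 stood at 1.71, 3.64, 5.02, 5.15, 4.62, 4.69, 4.56, 3.71, 2.88 and 3.45 in sagittal fractions 1 to 10, highest in fractions 3 to 7 (10.9-fold, residual SD 0.44, adjusted p = 0.0127). Kcna2 stood at -0.41, 0.43, 1.04, 1.56, 1.18, 1.66, 1.16, 0.78, 0.22 and 0.86 (4.18-fold, residual SD 0.30, adjusted p = 0.0328). Both axonal subunits were lowest in fraction 1.

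Kcnd2 stood at 1.07, 2.98, 3.72, 3.46, 3.34, 3.34, 3.32, 3.07, 2.23 and 2.68 in sagittal fractions 1 to 10 (6.27-fold, residual SD 0.45, adjusted p = 0.0488). Kcnc2 stood at -0.04, 0.95, 1.099, 1.61, 1.45, 1.25, 1.04, 0.39, 0.77 and 1.07 (3.13-fold, residual SD 0.22, adjusted p = 0.0368). Kcns3 stood at -1.50, -0.54, -0.35, 0.16, -0.05, 0.00, -0.34, -0.56, -0.66 and -0.40 (3.14-fold, residual SD 0.16, adjusted p = 0.0247). Kcnd2, Kcnc2 and Kcns3 were also lowest in fraction 1, where the myelin list was at -2.91 and the cerebellum list at -4.69. Kcng4 had the widest fitted range, 3.38 (adjusted p = 0.0219), from -3.49 in fraction 1 to -0.25 in fraction 4, and was not well above background in fraction 9.

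Kcna4, Kcnh3 and Kcng1 were high at the sides. Kcna4 stood at 1.92, 0.76, -0.23, -0.75, -0.14, 0.02, -0.43, 0.20, 1.53 and 0.98 in sagittal fractions 1 to 10 (6.34-fold, residual SD 0.46, adjusted p = 0.0328). Kcnh3 stood at 6.10, 5.51, 5.19, 4.68, 3.99, 4.32, 4.75, 5.03, 4.59 and 5.59 (4.30-fold, residual SD 0.32, adjusted p = 0.0364). Kcng1 stood at 1.12, 0.73, 0.19, 0.10, 0.08, -0.08, 0.18, 0.22, 0.51 and 1.00 (2.30-fold, residual SD 0.11, adjusted p = 0.0240). All of them had their highest fitted level in fraction 1 and their lowest in fraction 5. Fractions 1 to 4 lay on one slide and 5 to 10 on another. With slide as a term 3 members (Kcna1, Kcna4 and Kcng4) and 7.79% of all probes were called. Within fractions 5 to 10 limma called 0 members and 0% of all probes, and 3 members had an unadjusted p under 0.05. The count changed when single fractions were left out. Without fraction 1, the dimmest array, limma called 0 members and 0% of all probes (10 members with an unadjusted p under 0.05), and without fraction 4 0 members and 6.44% (14 so). Without fraction 2, 3, 5, 6 or 7 it called 1 to 3 members and 6.24% to 9.27% of all probes. Without fraction 9 it called 18 members and 38.8%, and without fraction 10 17 members and 47.1%. Centred on the array median, 0 members (13 so) and 1.04% of all probes were called. The share of all probes by unadjusted p is not given for any of these runs. It was 32.9% in the sagittal fit first given above. The counts of members by unadjusted p are therefore not read as results about the members.

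The sagittal fractions can also be read by their numbers as mirror pairs about the midline (1 and 10, 2 and 9, 3 and 8, 4 and 7, 5 and 6), so that left against right gives an error. The markers went against equal tissue in the outer pairs: relative to the series mean, the cerebellum list stood at -4.69 in fraction 1 and -1.19 in fraction 10, and at 0.72 in fraction 2 and -1.21 in fraction 9. The choroid plexus list stood at -5.05 in fraction 1 and -0.09 in fraction 10, and the myelin list at -2.91 and -0.33. Limma called 0 of 32 members and 0% of all probes for distance from the midline, while 8 members and 16.7% of all probes had an unadjusted p under 0.05. The median absolute difference between the sides over the 32 members was 0.82 in the outermost pair, 0.73, 0.52 and 0.30 in the next pairs and 0.16 beside the midline. The sides thus differed most in the outer pairs, which also held the dimmest arrays and the unlike marker levels. Fractions 1 to 4 lay on one slide and 5 to 10 on another, so only the pair of 5 and 6 shared a slide. The part of any of these was not tested.

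The members with an unadjusted p under 0.05 are given by their pair means, and none of them passed after adjustment. Kcna1 averaged 2.58, 3.26, 4.36, 4.86 and 4.65 from the outermost pair to the midline (p = 0.0301, adjusted p = 0.262). Kcng4 averaged -2.82, -2.85, -0.998, -0.42 and -0.56 (p = 0.00116, adjusted p = 0.162). Kcnh2 averaged -1.09, -1.72, -0.31, 0.79 and 0.86 (p = 0.00616, adjusted p = 0.207). In these the mean of the midline pair lay above that of the outermost pair. Kcna4 averaged 1.45, 1.15, -0.01, -0.59 and -0.06 (p = 0.00458, adjusted p = 0.201). Kcnh3 averaged 5.84, 5.05, 5.11, 4.72 and 4.16 (p = 0.0190, adjusted p = 0.241). Kcng1 averaged 1.06, 0.62, 0.21, 0.14 and 0.00 (p = 0.0159, adjusted p = 0.234). In these it lay below. Kcna5 and Kcnh8 were the other members with such a p (0.0140 and 0.0355), and Kcnh8 was well above background in 5 of the 10 fractions. With arrays centred on the median the outermost pair minus the midline pair gave -2.54 for Kcna1, -2.73 for Kcng4 and -2.42 for Kcnh2, and 1.04 for Kcna4, 1.21 for Kcnh3 and 0.59 for Kcng1, the last 3 with adjusted p = 0.604, 0.761 and 0.928. The count by adjusted p, 0 here, was 4 when arrays were centred on the median (Kcna1, Kcng4, Kcnh2 and Kcnh8; 3.46% of all probes), 8 without fraction 2 (16.2%) and 1 without fraction 10 (0.776%).

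**Figure D4:**
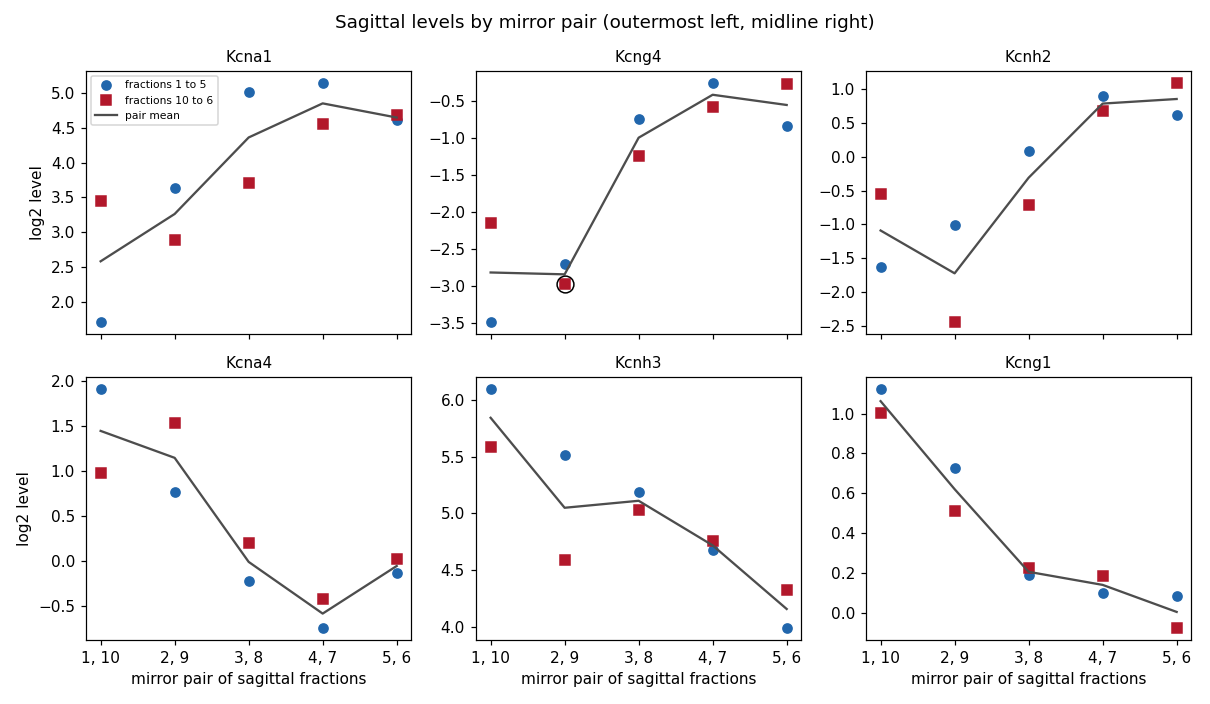
Sagittal levels of 6 members (log2 relative to the 75th percentile of the array) by mirror pair, outermost pair at the left of each panel. Circles are fractions 1 to 5, squares fractions 10 to 6, the line is the pair mean, and a black ring marks a signal not well above background. The sides differ most in the outer pairs.

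Some members resembled each other across the fractions, as many other genes did. As a description over the 28 fractions, which share brains, neighbours and arrays, Pearson's r was 0.93 for Kcnh3 with Kcnv1, 0.92 for Kcnf1 with Kcnh3 and 0.92 for Kcnc1 with Kcng4. The last pair held in each series (0.92, 0.93 and 0.94), while the first was 0.95 in the coronal and 0.63 in the sagittal series. Kcnf1 with Kcnh3 stood at 0.96 in the coronal and 0.57 in the sagittal series. The most opposed pairs were Kcna4 with Kcnc1 (-0.87) and Kcna4 with Kcng4 (-0.83). Centred on the array median they were -0.54 and -0.67. Among the named genes tested, an r above 0.85 was reached by 200 with Kcnh3, 216 with Kcnv1 and 113 with Kcnf1. With Kcnc1 it was reached by 158 and with Kcng4 by 167. Likeness of this size was therefore not particular to Kv members.

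Other genes resembled the members with the widest fitted range in each series. Kcnv1 was most like Chrm1 (r = 0.98), the muscarinic receptor M1, Dlgap2 (0.97), a postsynaptic scaffold, and Tbr1 (0.97), a transcription factor of cortical neurons. Kcng4 was most like Slc22a4 (0.96), Tfap2a (0.95), which passed the background flag on 19 of 28 arrays, and Ank1 (0.95). The probe used for Kcng2 was most like Ms4a19 (0.99), Adam32 (0.96) and Ovgp1 (0.94). The other Kcng2 probe had an r of -0.10 with it over the 28 fractions, so this likeness is that of 1 probe. Tbr1 read -1.51 in coronal fraction 3 and 3.06 in fraction 4, beside the step of Kcnv1 between them.

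**Figure D5:**
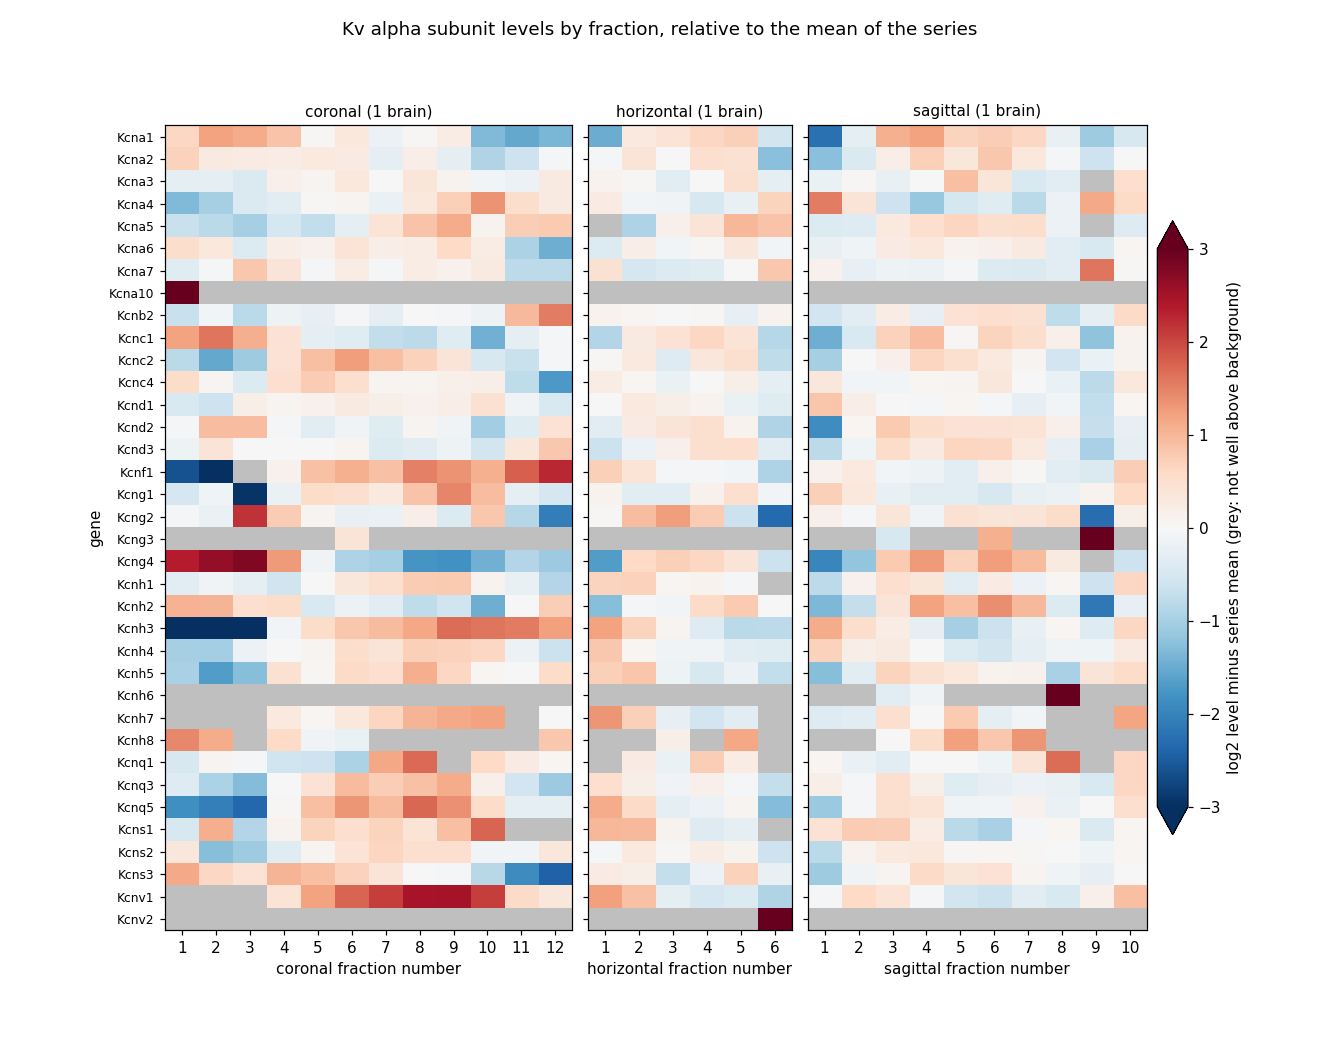
Levels of all 36 members in the 28 fractions as a difference from the mean of the series (log2, colour scale from -3 to 3), in rows by gene and in panels by series. Grey cells were not well above background. Kcng4 is red in coronal fractions 1 to 3, where Kcnh3 and Kcnf1 are blue or grey and Kcnv1 is grey, and Kcna10, Kcng3, Kcnh6 and Kcnv2 are mostly grey.

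4 members were not tested because they were near background. Kcna10, a channel of inner ear hair cells, was well above background on 1 array, coronal fraction 1 (-1.03). Kcnv2, a partner of Kv2 channels in photoreceptors, was so in horizontal fraction 6 alone (-2.84). Kcng3 was so on 4 arrays, with -0.83 in sagittal fraction 9 as the highest, and Kcnh6 on 3, with -1.36 in sagittal fraction 8 as the highest. Of the 4 skeletal muscle markers, Ckm was well above background on 0 arrays, Myh4 on 19, Actn3 on 21 and Acta1 on 28. Among the tested members, Kcna3, Kcnd1, Kcnq1 and Kcns2 were called in no series.

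The means over a whole series are given for each brain as a description. The spread between the highest and lowest of the 3 means had a median of 0.36 log2 over the 32 tested members, and was under 0.5 for 21. The share of all probes under that limit is not given here, so the count is not read as a result about the members. Kcnc1 averaged 2.24, 2.20 and 2.22 in the coronal, horizontal and sagittal series. Kcnv1 averaged -0.49, 0.92 and 1.17, and Kcng2 1.47, -0.08 and -0.13. The brains were cut along different axes and a mean weights fractions and not tissue equally, so no test was made.

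Members with several probes repeated their profile to different degrees. The other probe correlated with the one used at 0.92 for Kcnf1, 0.88 for Kcnd3, 0.87 for Kcnq5 and 0.72 for Kcna6 over the 28 fractions. For Kcnq5 it was 0.11 in the sagittal series alone. It was 0.43 for Kcng1, 0.37 for Kcnh4 and 0.67 for Kcnh8, whose other probes were well above background on 0, 4 and 4 arrays and not tested. Of the other probes of Kcnc1, one correlated at 0.89 and was called in the coronal series (adjusted p = 0.00194), and one at 0.62 and was not called (adjusted p = 0.156). The other probe of Kcnd3 was not called in the coronal series (adjusted p = 0.154). In the sagittal series the other probe of Kcna6 was called (adjusted p = 0.0221), where the one used was not, and so was one of Kcnc1 (0.0242). The other probe of Kcna5 was called in the coronal series (adjusted p = 0.000994) and ran against the one used in the sagittal series (r = -0.58).

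Genes that work with Kv channels, and the other potassium channel classes, were counted in the same fits, to be read against the shares over all probes, 33.7% in the coronal, 15.8% in the horizontal and 14.7% in the sagittal series. Of the Kv auxiliary subunits, which tune gating and traffic, 7 of 13 tested were called in the coronal series, 4 in the horizontal and 3 in the sagittal. Among those called, the widest coronal ranges were 3.50 for Kcnab1, a beta subunit of Kv1 channels, and 3.24 for Kcnip2, which binds Kv4 channels. Next was 1.79 for Kcne3, which was well above background in 1 of the 12 fractions, so that its range is no measured fold. The highest fitted levels of Kcnab1, Kcnip2 and Kcne3 lay in fractions 7, 10 and 8. Kcne2 had a wider range, 4.44, and was not called (limma adjusted p = 0.181). Of the clustering partners, which hold Kv channels at axonal and synaptic sites, 5 of 13 were called in the coronal, 3 in the horizontal and 5 in the sagittal series, so the coronal share, 38.5%, was near that of all probes. The widest coronal ranges were those of Lgi3 (2.87) and Cntn2 (1.90), highest in fraction 1, and Dlg4 (1.71), highest in fraction 8.

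Of the inward rectifiers, 8 of 13 were called in the coronal series, 5 in the horizontal and 2 in the sagittal. Kcnj4 had a coronal range of 7.58, with its highest fitted level in fraction 9, Kcnj5 one of 4.89 (fraction 7) and Kcnj14 one of 3.53 (fraction 1). Of the tandem-pore leak channels, 9 of 12, 5 and 1 were called in the 3 series. Kcnk15 was highest in fraction 12 (3.48), and Kcnk3 (2.51) and Kcnk10 (2.50) in fraction 1. Of the calcium- and sodium-activated channels, 8 of 9, 3 and 1 were called. Kcnn4 (5.19, fraction 12), Kcnt2 (3.41, fraction 8) and Kcnt1 (1.88, fraction 1) had the widest coronal ranges. Kcnn4 was well above background in 2 of the 12 fractions and Kcnt2 in 7, Kcnj5 and Kcnj14 in 8 and Kcnk15 in 9, so these fitted ranges reach into background signal and are no measured folds.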

How the data were processed

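Cy3-labelled RNA of every fraction was hybridised to a 1-colour Agilent array, 28 in all. Per the file headers, Feature Extraction 10.5.1.1 made the deposited intensity values, with the local background of a spot removed. A second table, deposited by the authors, gives log2 values for 44721 probes. Of these log2 values, 99.2% equalled the ones computed here within 0.0001 after an offset for each array.

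Here, 108 to 176 outlier spots per array were dropped, spots were averaged by probe, and log2 values were centred on the 75th percentile within each array. A probe was well above background on an array if at least 0.5 of its spots had that flag. Tested were the 32364 of 55681 probes that lost no spot and were well above background somewhere in every series. Dim signal limits what an array can show, and the number of arrays limits the precision. The lowest signal well above background on an array lay between -5.85 and -3.03 log2. A fold against a signal without the flag was counted from that level, or from the signal itself where it was higher. The flag is set by spot, so a signal above that level can lack it, as for Kcna5 in horizontal fraction 1 (-3.41 against -3.64). Such a fold is therefore no strict lower bound. Names came from RefSeq accessions (GRCm38.p6), which named 27235 probes (48.9%).

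Natural splines of the fraction number (3 degrees of freedom, 2 for the horizontal series) and a factor of 5 mirror pairs were fitted with limma 3.58.1 (R 4.3.3) over all tested probes, with Benjamini-Hochberg adjustment and a threshold of 0.05. The scripts were tested on simulated data. Python 3.11.15 was used for the tables. The members and lists were chosen with earlier results of these data known. Values of every fraction are given for called members well above background throughout a series, at most 12 per test by fitted range, and at least 1 per family, for likeness the 3 nearest named genes, and of companion lists the 3 widest ranges past the threshold. The 6 members in the mirror-pair plot were chosen after their values were seen. Alternatives were another centring, quantile normalization, normexp with an offset of 50, other filters, fewer degrees of freedom, slide, the deposited log2 values, the mean of all probes of a gene and leaving out each fraction. Protein sequences were not used here. Genes outside the 36 listed, including other Kv genes, were not analysed here as members, and 1 companion list and 1 marker are not reported here.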

Additional observations from a re-analysis of the deposited data

Results flagged for a closer look

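In 64 sets of member levels (32 members in the horizontal and in the sagittal series), 11 had a fraction that stood apart: the share of the whole range that lay between it and the next fraction, given in parentheses, passed the 95% limit of Dixon's test. Chance would give about 3.2 if the fractions were replicates. Fractions at different positions are not replicates of each other, so an extreme place can give such a gap. The share of all probes past the same limit is not given here, so the count is not read as a result about the members. In horizontal fraction 6, Kcna2 was low at -0.49 (0.680), Kcns2 at -2.11 (0.650) and Kcnh1 at -3.61, not well above background (0.663). In horizontal fraction 5 Kcnb2 was low at -1.76 (0.680), and in horizontal fraction 1 Kcnh4 was high at 0.32 (0.643). In sagittal fraction 1, Kcnq5 was low at -2.10 (0.577), Kcns2 at -2.42 (0.594) and Kcns3 at -1.50 (0.504). In sagittal fraction 9, Kcna7 was high at 1.42 (0.723), and Kcnc4 at 1.57 (0.520) and Kcng2 at -2.40 (0.772) were low. Sagittal fraction 1, sagittal fraction 9 and horizontal fraction 6 had 75th percentiles of 135, 176 and 233 intensity units, and their part in these gaps was not tested.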

How the results depend on the processing

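Among the alternatives without a left-out fraction, the coronal count of 22 members (33.7% of all probes) moved with slide as a term, to 1, and was otherwise between 16 and 24. The coronal shares of all probes stand above for slide and for fractions 3 to 10, and are not given for the other alternatives. For the other tests, shares of all probes called in the same fit are given in parentheses. The horizontal count of 11 (15.8%) became 24 with arrays centred on the median (59.8%), 19 with normexp (28.0%) and 0 with 1 degree of freedom fewer (0.00309%). In the last of these 12 members had an unadjusted p under 0.05, for which the share of all probes is not given. The sagittal count of 9 (14.7%) became 0 with the array median (1.04%), 4 with quantile normalization (8.13%), 17 with normexp (44.2%), 14 of 26 over probes well above background in all fractions (25%), 3 with slide as a term (7.79%) and 0 within fractions 5 to 10 (0%). With no filter on dim probes the horizontal count was 9 of 36 (13.35%), without Kcna1, Kcna7, Kcnc1 and Kcnd2. The 9 included Kcna10 and Kcnv2 (limma adjusted p = 0.0269 and 0.0455), which were near background and otherwise not tested. For distance from the midline, 0 (0%) became 4 with the array median (3.46%) and 2 over probes well above background in all fractions (1.55%). The cause was not tested, except that fewer fractions were fitted within a slide. Leaving out 1 fraction at a time gave 18 to 24 coronal, 0 to 13 horizontal, 0 to 18 sagittal and 0 to 8 distance calls. Shares of all probes stand above beside the horizontal, sagittal and distance counts named there, and are not given for the coronal runs. The ranges alone are not read as results about the members. Centred on the array median, the median tested probe moved between 1.92 (sagittal fraction 9) and 3.38 (coronal fraction 12), against -0.76 to -0.60 with the 75th percentile. No paired analysis was possible because the fraction numbers of the 3 planes mark places along different axes and no groups were compared.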
